A study of Mus musculus with 8 samples.

Results

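The stomach makes a set of secreted products in its deep glands, and 6 genes for such products were followed here in the crypts and villi of the mouse small intestine. They were *Muc6*, *Tff2*, *Gkn3*, *Pgc*, *Cblif* and *Gast*. The genes were chosen by symbol with their crypt values already known, so the comparison of genotypes for these genes is a description with no test. All 6 were among the 11554 genes of the crypt table, and 3 of them, *Tff2*, *Gkn3* and *Pgc*, were among the 12701 genes of the villus table.

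Gastric glands are built in zones. Mucous neck cells and the glands of the antrum make the gel-forming mucin *Muc6* and the trefoil peptide *Tff2*, chief cells at the gland base make pepsinogens and, in the mouse, intrinsic factor, and G cells of the antrum release the hormone gastrin. Brunner's glands of the proximal duodenum make *Muc6* and *Tff2* as well and open into the crypts beside them, so both genes can be read in small intestinal tissue without any gastric cell.

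Crypt and villus epithelial cells of C57BL/6 mice were compared between control (Ctrl) and *Gli1-Ptgs* cKO mice by bulk RNA-seq, with 2 samples for each genotype and tissue in the labels. In cKO mice a tamoxifen-inducible Cre recombinase driven by *Gli1* (CreERT2) deleted *Ptgs1* and *Ptgs2*, the genes of the cyclooxygenases COX1 and COX2, in Gli1+ mesenchymal stromal cells, and the mice were studied 1 month after tamoxifen. The labels give the Ctrl mice as WT and as *Gli1-CreERT2; Rosa26-tdTomato*, whereas the study also describes controls with floxed *Ptgs1* and *Ptgs2* and no Cre, so the exact control allele is uncertain. The segment of small intestine taken and the age of these mice were not given in the sources used here.

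The crypt libraries held 16853017 to 21121714 reads on listed genes and the villus libraries 13477600 to 15751024. The Ctrl villus columns were identical for all 12701 genes and were counted as 1 library, so villi have no replicate in Ctrl and no test. Replicates are separate samples by their labels, and nothing further says whether they were single mice. *Ptgs1* read 365 and 164 normalized counts in Ctrl crypts and 178 and 199 in cKO crypts. *Ptgs2* and *Gli1* were not listed, and epithelial libraries cannot check a deletion in stromal cells. The cKO crypt replicate 1 stood apart. Its difference from the other crypt libraries followed transcript length, with a Spearman correlation of -0.67 across genes, so that short transcripts read high and long transcripts low. The crypt difference of each member, and of some other genes, is therefore given also after a correction for transcript length. Differences given only as deposited can change with this correction as well.

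The 6 genes lie at separate places on 5 chromosomes in GRCm38 (GENCODE M21), and none overlaps another annotated gene. *Muc6* (ENSMUSG00000048191) spans chr7:141633456-141655319 on the minus strand, *Tff2* (ENSMUSG00000024028) chr17:31141049-31144282 on the minus strand and *Gkn3* (ENSMUSG00000030048) chr6:87383256-87388935 on the minus strand. *Pgc* (ENSMUSG00000023987) spans chr17:47726842-47734482, *Cblif* (ENSMUSG00000024682, listed in GENCODE as *Gif*) chr19:11747554-11763447 and *Gast* (ENSMUSG00000017165) chr11:100334407-100336996, all on the plus strand. Their longest transcripts differ widely, with 8757 bases for *Muc6*, 1537 for *Cblif*, 1388 for *Pgc*, 856 for *Gkn3*, 584 for *Tff2* and 460 for *Gast*.

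The sequences before the transcription start are shown for the member whose groups overlapped (*Muc6*) and for 3 members that were higher in both cKO crypt libraries (*Gast*, *Cblif* and *Pgc*), so that a reader can compare them. Each is the 250 bases before the RefSeq start in GRCm38.p6, printed on the gene's own strand. Capitals mark TATAA, the core of the TATA box, AGATAA, a site read by GATA factors, and GGGCGG, a site read by Sp1, each searched on both strands, with these letters chosen after the sequences had been read. In *Gast* the matches to TATAA on either strand overlap, so the capitals run TTATAA.
Muc6, chr7:141655394-141655643, minus strand: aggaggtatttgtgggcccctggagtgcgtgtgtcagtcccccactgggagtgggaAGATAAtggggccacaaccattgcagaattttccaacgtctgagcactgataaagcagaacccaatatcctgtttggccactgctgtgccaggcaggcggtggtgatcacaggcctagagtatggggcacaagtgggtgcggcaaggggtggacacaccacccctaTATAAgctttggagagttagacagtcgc
Gast, chr11:100334157-100334406, plus strand: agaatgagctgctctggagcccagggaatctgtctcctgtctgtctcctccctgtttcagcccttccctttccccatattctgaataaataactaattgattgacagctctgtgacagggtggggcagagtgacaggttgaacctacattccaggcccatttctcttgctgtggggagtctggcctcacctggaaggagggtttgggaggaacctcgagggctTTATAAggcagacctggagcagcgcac
Cblif, chr19:11747309-11747558, plus strand: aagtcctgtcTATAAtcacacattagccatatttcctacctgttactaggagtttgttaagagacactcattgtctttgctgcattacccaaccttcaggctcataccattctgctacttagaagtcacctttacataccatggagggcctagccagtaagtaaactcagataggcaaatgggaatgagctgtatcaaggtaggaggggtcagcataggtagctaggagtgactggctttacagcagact
Pgc, chr17:47726592-47726841, plus strand: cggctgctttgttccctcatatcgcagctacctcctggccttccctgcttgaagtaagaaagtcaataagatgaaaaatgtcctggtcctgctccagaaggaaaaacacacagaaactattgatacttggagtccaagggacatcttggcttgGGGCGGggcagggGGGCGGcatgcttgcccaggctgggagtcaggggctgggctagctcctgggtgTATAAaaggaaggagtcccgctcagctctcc
TATAA stood 28 bases before the start in *Muc6*, 31 in *Pgc* and 26 in *Gast*, the range where a TATA box acts. On the gene's strand it was found within 50 bases of the start in 4.93% of 32851 RefSeq promoters. In *Cblif* the match lay 240 bases before the start, and in *Gkn3* 187, and TATAA on either strand was present in the 250-base window of 22.8% of promoters. AGATAA was found only in *Muc6* among the 5 members with a sequence, 194 bases before the start, and in 9.99% of promoters. GGGCGG was found in *Pgc* only, 97 and 84 bases before the start, and in 32.7% of promoters. The *Muc6* start in RefSeq lies outside the GENCODE transcript, so its window may not be the one used in these cells. A match is a run of letters and not a measured site, and these windows did not separate *Muc6* from the other members by a nearby TATAA.

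In crypts, 5 of the 6 genes had higher values in both cKO libraries than in either Ctrl library, and *Muc6* did not. Over all 11554 crypt genes, 9.73% had both cKO libraries above both Ctrl libraries, and nothing is read from the members' count because the choice of members used this contrast. The log2 difference (cKO minus Ctrl, on log2 of the normalized count plus 1) ran from 1.03 to 1.88 in the 5 genes and was -0.33 in *Muc6*, and its median over the 6 was 1.41 against -0.010 over all genes. In bulk libraries like these, more cells of a type and more RNA in each cell cannot be told apart.

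**Figure D1:**
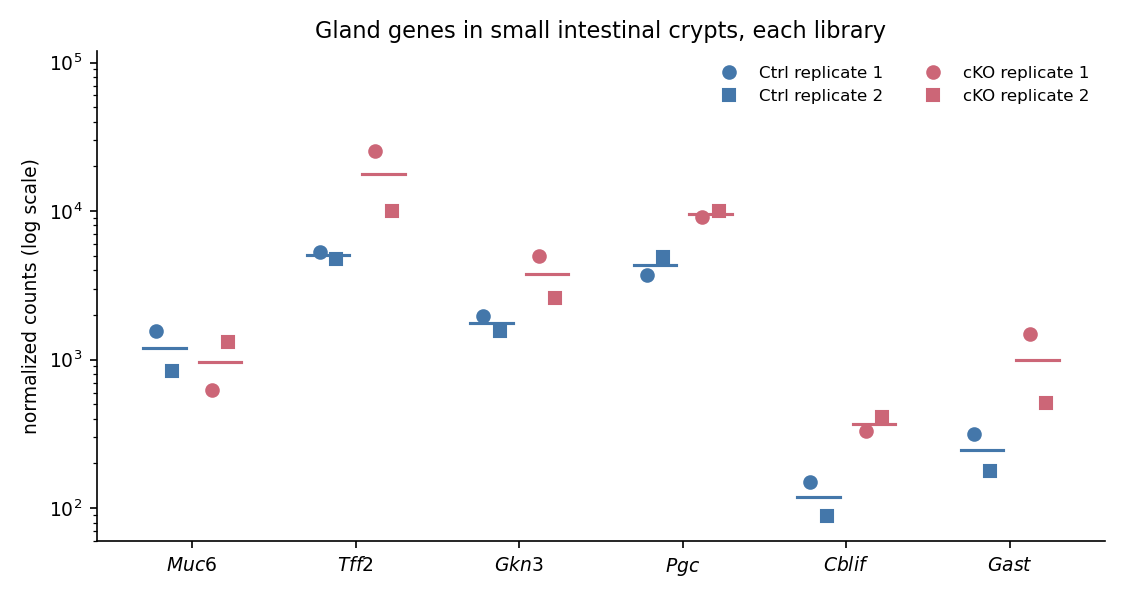
Normalized counts (log axis) of the 6 genes in each crypt library. Circles are replicate 1 and squares replicate 2, blue is Ctrl and red cKO, and the bars are group means of 2 libraries. The red points lie above the blue points for each gene except *Muc6*, whose groups overlap.

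*Muc6* encodes the gel-forming mucin of neck cells, antral glands and Brunner's glands. Its normalized counts were 1562 and 835 in Ctrl crypts and 625 and 1317 in cKO crypts. Each group had a high and a low library, so the groups overlapped. The Ctrl mean was 1199 ± 514 (SD, n = 2) and the cKO mean 971 ± 489 (SD, n = 2). The log2 difference was -0.33 with a standard error (SE) of 0.45. Its sign rested on single libraries, with 0.12 without Ctrl replicate 1 and 0.21 without cKO replicate 1, against -0.78 without Ctrl replicate 2 and -0.87 without cKO replicate 2. After length correction it was -0.06, and the cKO libraries stood at -0.22 and 0.09 from the Ctrl mean. With 2 libraries a group, no change of *Muc6* was detectable, which does not show that there was none.

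*Tff2* encodes a small trefoil peptide that is secreted with the *Muc6* mucin and binds its sugars. It read 5274 and 4790 normalized counts in Ctrl crypts and 25307 and 10074 in cKO crypts. The Ctrl libraries lay close together and both cKO libraries lay above them, but the cKO libraries differed 2.51 times from each other. The log2 difference was 1.67 (SE 0.44), and it was 1.00 without cKO replicate 1 and 2.33 without cKO replicate 2. After length correction the cKO libraries no longer stood apart, at 1.10 and 1.18 above the Ctrl mean, with a difference of 1.14. *Tff2* and *Muc6*, whose products are partners in the same mucous secretion, thus had different patterns over the same 4 libraries.

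*Gkn3* encodes a secreted gastrokine of the mucous neck cells of the mouse stomach. It read 1980 and 1560 normalized counts in Ctrl crypts and 4954 and 2599 in cKO crypts. Both cKO libraries were above both Ctrl libraries, and replicate 1 was again the higher of the cKO libraries. The log2 difference was 1.03 (SE 0.35) and depended on cKO replicate 1, with 0.56 without it and 1.49 without cKO replicate 2. After length correction it was 0.62, the smallest of the 5, with 0.52 and 0.73 in the cKO libraries.

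*Pgc* encodes pepsinogen C, a protease precursor of gastric chief and neck cells and of the antrum and Brunner's glands. It read 3726 and 4879 normalized counts in Ctrl crypts and 9055 and 10055 in cKO crypts. The libraries of each group lay near each other, with a gap between the groups, and the log2 difference was 1.16 (SE 0.27), the smallest SE of the 6 genes. It ranged from 0.97 to 1.36 when single libraries were left out. After length correction the difference was 0.91, and the cKO libraries moved apart to 0.45 and 1.38.

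*Cblif* encodes the intrinsic factor that carries vitamin B12 to its ileal receptor, and in the mouse it is a product of chief cells. It read 149 and 89.1 normalized counts in Ctrl crypts and 330 and 412 in cKO crypts, the lowest counts of the 6 genes. Both cKO libraries were above both Ctrl libraries, replicate 2 was the higher of the cKO libraries, and the log2 difference was 1.67 (SE 0.39). After length correction the difference was 1.46, the largest of the 6, with 0.95 and 1.96 in the cKO libraries.

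*Gast* encodes gastrin, the hormone of antral G cells that drives acid secretion and growth of the gastric mucosa. It read 316 and 178 normalized counts in Ctrl crypts and 1487 and 513 in cKO crypts. Both cKO libraries were above both Ctrl libraries, and cKO replicate 1 was 2.90 times cKO replicate 2. The log2 difference was 1.88 (SE 0.54), which was the 7th highest of 11554 genes as deposited, and it was 1.11 without cKO replicate 1 and 2.64 without cKO replicate 2. After length correction it was 1.27, with 1.24 and 1.29 in the cKO libraries.

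The gap between the cKO libraries followed the length of the transcript in all 6 genes. The ratio of cKO replicate 1 to cKO replicate 2 was 2.90 for *Gast*, 2.51 for *Tff2*, 1.91 for *Gkn3*, 0.90 for *Pgc*, 0.80 for *Cblif* and 0.47 for *Muc6*, which is the order of their lengths from the shortest to the longest. The order of the genes by difference was *Gast*, *Cblif*, *Tff2*, *Pgc* and *Gkn3* as deposited and *Cblif*, *Gast*, *Tff2*, *Pgc* and *Gkn3* after correction. The median over the 6 fell from 1.41 to 1.03, and both cKO libraries stayed above both Ctrl libraries for the 5 genes.

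**Figure D2:**
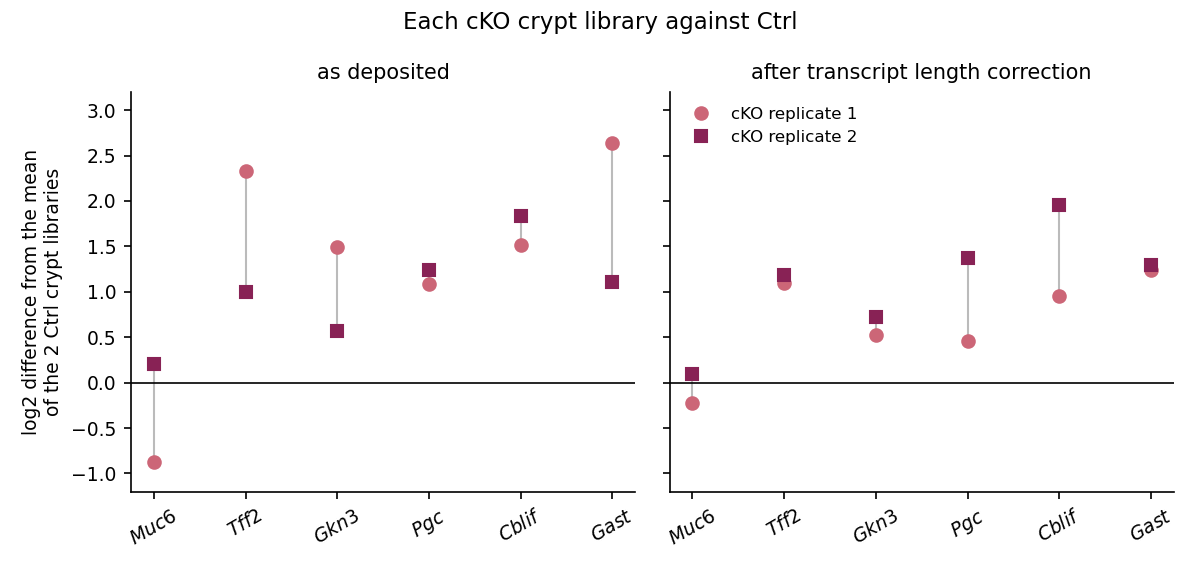
Log2 difference of each cKO crypt library from the mean of the 2 Ctrl crypt libraries, as deposited (left) and after correction for transcript length (right). Circles are cKO replicate 1, squares cKO replicate 2, and a grey line joins the libraries of a gene. After correction the libraries lie together for *Tff2* (1.10 and 1.18) and *Gast* (1.24 and 1.29) and apart for *Pgc* (0.45 and 1.38) and *Cblif* (0.95 and 1.96).

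Ratios of 2 genes within a library do not depend on how the library was scaled, and they set the other members directly beside *Muc6*. There were 3.38 and 5.73 reads of *Tff2* for each read of *Muc6* in Ctrl crypts and 40.5 and 7.65 in cKO crypts. For *Pgc* the ratios were 2.39 and 5.84 in Ctrl and 14.5 and 7.63 in cKO. For *Gkn3* they were 1.27 and 1.87 in Ctrl and 7.92 and 1.97 in cKO, so that cKO replicate 2 was barely above the higher Ctrl library. The 2 low genes had the tightest Ctrl ratios. *Gast* stood at 0.202 and 0.213 reads for each *Muc6* read in Ctrl and 2.38 and 0.389 in cKO. *Cblif* stood at 0.0954 and 0.107 in Ctrl and 0.529 and 0.313 in cKO. All 5 ratios were higher in both cKO libraries, and the mean log2 ratio differed by 1.36 (*Gkn3*) to 2.21 (*Gast*). The members were chosen with these values known, and the 5 ratios share *Muc6* as their denominator, so nothing is read from this count. The length effect in cKO replicate 1 enters these ratios in full, because *Muc6* has the longest transcript of the 6. Without cKO replicate 1 the changes against *Muc6* were 0.36 for *Gkn3*, 0.80 for *Tff2*, 0.91 for *Gast*, 1.03 for *Pgc* and 1.63 for *Cblif*, and without cKO replicate 2 they ran from 1.96 (*Pgc*) to 3.52 (*Gast*). For *Pgc* the change was also 0.85 without Ctrl replicate 1. After length correction the differences from *Muc6* were 0.69 for *Gkn3*, 0.98 for *Pgc*, 1.201 for *Tff2*, 1.33 for *Gast* and 1.52 for *Cblif*.

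**Figure D3:**
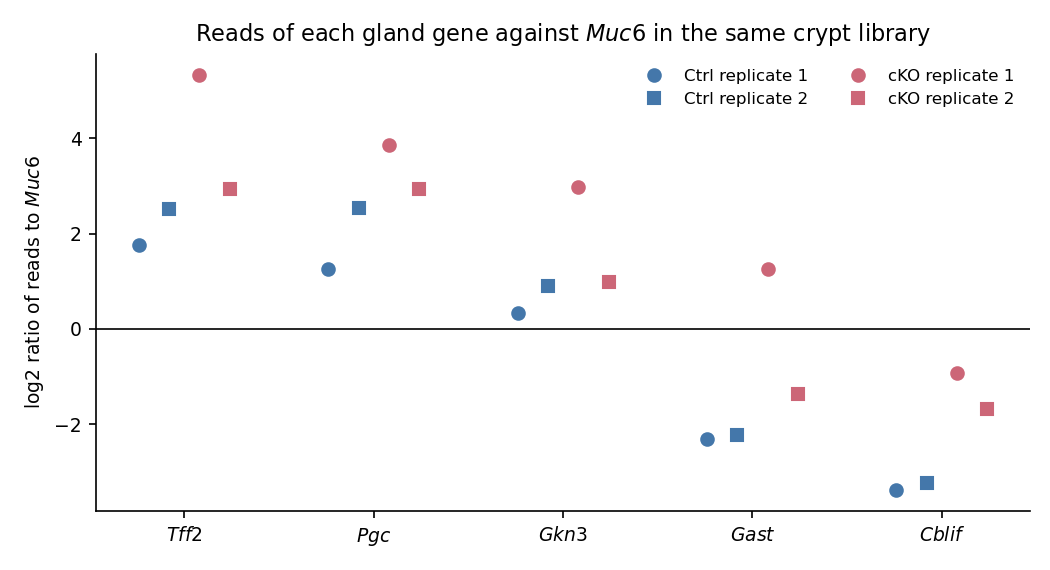
Log2 of the reads of each gene divided by the reads of *Muc6* in the same crypt library. Blue points are Ctrl and red points cKO, circles replicate 1 and squares replicate 2. In each gene both red points lie above both blue points, with the smallest gap for *Gkn3* (1.87 in Ctrl replicate 2 and 1.97 in cKO replicate 2 on the linear scale).

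Among the 5 genes without *Muc6*, 8 of the 10 possible ratios overlapped between the genotypes. The share over all pairs of genes was not computed, and the members were chosen with these values known, so nothing is read from this count. These ratios were not corrected for transcript length. The ratio of *Gkn3* to *Tff2* was 0.375 and 0.326 in Ctrl and 0.196 and 0.258 in cKO, lower in both cKO libraries. The ratio of *Gast* to *Gkn3* was 0.159 and 0.114 in Ctrl and 0.3001 and 0.197 in cKO, higher in both. The ratio of *Cblif* to *Tff2* was the same on average in both genotypes, with a mean log2 change of 0.01, although single libraries ran from 0.0131 to 0.0409.

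Levels between genes were compared per kilobase of the longest transcript, as CPM per kilobase, where CPM is the number of reads on a gene for each 1000000 reads on listed genes. In Ctrl crypts the order of the mean levels was *Tff2* (462 ± 42.8 CPM per kilobase, SD, n = 2), *Pgc* (166 ± 27.3), *Gkn3* (111 ± 21.3), *Gast* (28.9 ± 12.03), *Muc6* (7.37 ± 3.32) and *Cblif* (4.16 ± 1.58). Neighbours in this order did not overlap between libraries, except that the ranges of *Muc6* (5.02 to 9.72) and *Cblif* (3.05 to 5.28) did. In cKO crypts the level of *Tff2* was 1515 ± 846 CPM per kilobase, *Pgc* 351 ± 47.1, *Gkn3* 222 ± 85.5, *Gast* 108 ± 69.6, *Cblif* 12.4 ± 2.66 and *Muc6* 5.74 ± 3.19. *Cblif* thus passed *Muc6* in the order, and no neighbours overlapped. The pepsinogen and the trefoil peptide were already far more abundant per kilobase than the *Muc6* mucin in Ctrl crypts.

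The genes whose pattern over the 4 crypt libraries was nearest to each member were found by the root mean square distance between log2 profiles centred on their means. For *Muc6* these were *Cald1* (distance 0.025), which encodes an actin-binding protein of contractile cells, *Dclre1c* (0.040), a DNA repair nuclease gene, and *Lama5* (0.046), a basement membrane laminin gene. Their longest transcripts have 4777, 7075 and 11388 bases, so all are long like *Muc6*. The summed normalized counts of 6 mesenchymal genes (*Dcn*, *Lum*, *Col1a1*, *Col1a2*, *Col3a1* and *Pdgfra*) were 13506 and 7334 in Ctrl crypts and 8208 and 11990 in cKO crypts, with the same high and low libraries in each group as *Muc6*. The sum of 7 immune genes had the same high and low libraries too (2526 and 1965 in Ctrl, 2038 and 3330 in cKO). Among its single genes, however, only *Lyz2* and *Jchain* had this order. *Ptprc*, *Cd3e*, *Cd8a* and *Cd79a* had the opposite order in Ctrl, and *H2-Aa* had it in cKO. The part of mesenchymal or immune cells in the *Muc6* values was not tested.

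**Figure D4:**
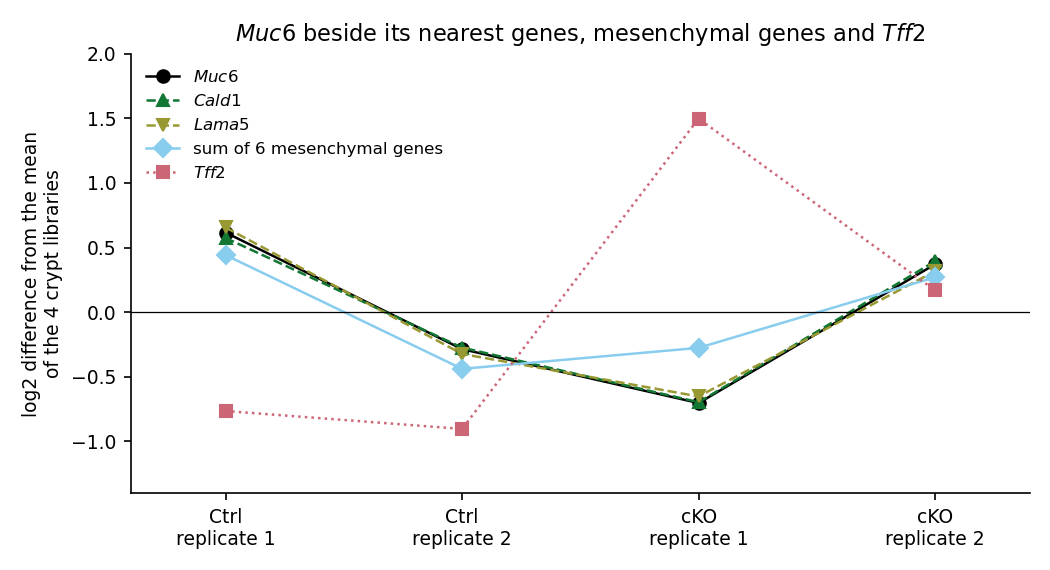
Log2 difference from the mean of the 4 crypt libraries for *Muc6*, its near neighbours *Cald1* and *Lama5*, the sum of 6 mesenchymal genes and *Tff2*, in each crypt library; lines only join the points of an item. *Muc6*, *Cald1* and *Lama5* lie nearly on top of each other, high in Ctrl replicate 1 and cKO replicate 2, whereas *Tff2* is low in both Ctrl libraries and highest in cKO replicate 1.

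The other members had different neighbours. Close to *Tff2* lay *Psca* (0.155) and *Vsig2* (0.1701), and *Gast* ranked 19th (0.273). Close to *Gast* lay *Ccdc28b* (0.211) and *Tff2* (0.273). *Pgc* lay nearest to *Mucl3* (0.088), *S100g* (0.103) and the gastric surface gene *Vsig1* (0.108). *Gkn3* lay nearest to *Rita1* (0.053), *1110012L19Rik* (0.061) and *Prap1* (0.070), and *Cblif* to *Tpbgl* (0.193), *Apoe* (0.238) and *Trim46* (0.248). Distances over 4 libraries are a description only.

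Paralogs of 3 members lie beside them in the genome, and they were listed here for that position. Across the crypt genes, the study's threshold (unadjusted p under 0.01 and a log2 difference beyond 1, here with limma) was passed in the higher direction by 20 genes (0.173%) and in the lower direction by 1 gene (0.00866%). No gene (0%) had a Benjamini-Hochberg adjusted p under 0.05 by limma or edgeR. By limma 73 genes (0.632%) and by edgeR 108 had an unadjusted p under 0.05. DESeq2 gave 227 at an unadjusted and 11 at an adjusted p under 0.05. The adjusted p by limma was 0.99961 for each gene named from here on, so each gene that passed did so on its unadjusted p alone. Beside *Gkn3*, both other gastrokine genes passed the threshold. *Gkn1* read 5588 and 7915 normalized counts in Ctrl and 32905 and 14115 in cKO. Its log2 difference was 1.70 (SE 0.45) as deposited and 1.41 after length correction. *Gkn2* read 6625 and 9717 in Ctrl and 31122 and 18209 in cKO. Its log2 difference was 1.57 (SE 0.37) as deposited and 1.14 after length correction. Without Ctrl replicate 1 neither passed, and without Ctrl replicate 2 *Gkn2* did not. Beside *Tff2*, *Tff3*, the trefoil peptide of goblet cells, read 4725 and 4714 in Ctrl and 12503 and 4467 in cKO and overlapped. Its log2 difference was 0.66 (SE 0.47) as deposited and 0.079 after length correction. *Tff1*, the trefoil peptide of gastric surface cells, was not listed.

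The listed mucin genes beside *Muc6* on chromosome 7 differed in opposite directions. *Muc2*, the gel-forming mucin of goblet cells, read 19796 and 15809 normalized counts in Ctrl crypts and 8235 and 7934 in cKO crypts, and it was the 1 gene to pass the threshold in the lower direction (log2 difference -1.13, SE 0.28). *Muc5ac*, the mucin of gastric surface cells, read 3153 and 4516 in Ctrl and 7718 and 11180 in cKO and passed in the higher direction (1.30, SE 0.31). *Muc5b* was not listed. Both calls ended without Ctrl replicate 1 (-0.97 for *Muc2*, 1.04 for *Muc5ac*) and without Ctrl replicate 2 (-1.29 and 1.56), although for each gene both cKO libraries lay on 1 side of both Ctrl libraries. After length correction the differences were -1.16 and 1.62. For *Muc2* the correction used the longest annotated transcript of 2926 bases, whereas its merged exons hold 7127 bases. Its corrected difference depends on that length and was not computed with the longer one.

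Few other genes of the same gland cells were listed in crypts. Of 10 other genes of chief, neck, antral and Brunner gland cells, 5 were listed and none passed the threshold in either direction by limma, edgeR or DESeq2, with a median log2 difference of 0.31. By limma and edgeR 0 of them had an unadjusted p under 0.05, and by DESeq2 1 had. *Pga5*, *Lipf* and *Chia1*, which encode a pepsinogen, gastric lipase and acidic chitinase, were not listed. The largest difference was that of the water channel gene *Aqp5*, which read 88.1 and 58.5 normalized counts in Ctrl and 268 and 93.9 in cKO (1.13, SE 0.60), and it passed only without cKO replicate 2. *A4gnt*, whose enzyme adds the terminal sugar that marks the *Muc6* mucin, read 253 and 181 in Ctrl and 205 and 364 in cKO (0.35), so that its groups overlapped as those of *Muc6* did. *Rab3d*, a secretory granule gene, read 1364 and 1533 in Ctrl and 1830 and 1762 in cKO (0.31).

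Of 9 gastric surface genes, a list drawn up with these data known and in part named by the study from these samples, 8 were listed and all 8 passed the threshold in the higher direction, with a median of 1.44. After length correction 6 passed, by edgeR 7 and without cKO replicate 1 6, while without Ctrl replicate 1 only *Anxa10* and *Psca* passed, and without Ctrl replicate 2 only these, *Cldn18* and *Gkn1*, 4 in all. This is not independent evidence of a direction. Besides *Gkn1*, *Gkn2* and *Muc5ac* these were *Psca* (1.79, and 1.38 after length correction), *Anxa10* (1.67), *Cldn18* (1.32), *Ctse* (1.07) and *Vsig1* (1.02). The log2 differences of the 5 gland genes other than *Muc6* ran from 1.03 to 1.88, against 1.02 to 1.79 in these 8. After length correction the ranges were 0.62 to 1.46 in the gland genes and 0.96 to 1.62 in the surface genes.

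For gastrin, 11 of 15 genes of related hormones, endocrine regulators and prohormone processing were listed, and none passed the threshold in either direction by limma, edgeR or DESeq2 (median 0.10). An unadjusted p under 0.05 was reached by 1 of them by limma and by 2 by edgeR and DESeq2. *Nkx6-3*, a transcription factor gene of antral endocrine cells, read 106 and 97.2 normalized counts in Ctrl and 223 and 174 in cKO (0.95, SE 0.38). *Sst*, the hormone gene of D cells, read 386 and 455 in Ctrl and 1063 and 554 in cKO (0.87, SE 0.37, and 0.41 after length correction). The endocrine granule gene *Chga* read 1366 and 1575 in Ctrl and 2581 and 1377 in cKO and overlapped, and *Cckbr*, the gastrin receptor gene, was not listed.

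For intrinsic factor, all 8 genes of vitamin B12 uptake and transport were listed, none passed the threshold by limma, edgeR or DESeq2, and 0 had an unadjusted p under 0.05 by any of them (median -0.11). *Cubn*, the intrinsic factor receptor, read 300 and 1300 normalized counts in Ctrl and 370 and 768 in cKO, which overlapped. The largest differences were those of *Lrp2* (-0.89, and -0.49 after length correction), *Cd320* (0.50) and *Abcc1* (-0.44), all with overlapping groups.

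Of 10 transcription factor genes of stomach and proximal duodenum, 9 were listed and none passed the threshold by limma, edgeR or DESeq2 (median 0.37), though *Foxq1* did after length correction. By each of these tools 2 of them had an unadjusted p under 0.05. The 3 largest differences were those of *Sox21* (0.99, SE 0.53), *Nkx6-3* (0.95) and *Foxq1* (0.94, SE 0.30), and all 3 were higher in both cKO libraries. Of the 9 genes, 4 were higher in both, against 9.73% of all crypt genes. *Gata4*, *Gata6*, *Foxa1*, *Foxa2* and *Spdef* overlapped. The list was chosen with these data known, so nothing is read from this count. *Sox2*, a factor of stomach identity, was not listed. *Pdx1*, a factor of antrum and duodenum, read 248 and 261 normalized counts in Ctrl and 329 and 403 in cKO (0.52, SE 0.30).

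Markers of other cells that a crypt preparation could hold were set beside the gland genes. Of 6 parietal cell genes, *Atp4a*, *Atp4b*, *Kcne2* and *Slc26a7* were not listed in crypts or villi. The other 2, *Aqp4* and *Kcnq1*, were listed in both tissues, and in crypts their groups overlapped. *Aqp4* read 1460 and 1646 normalized counts in Ctrl crypts and 836 and 1551 in cKO crypts. *Kcnq1* read 3760 and 4746 in Ctrl crypts and 3957 and 4058 in cKO crypts. Of 10 pancreatic acinar genes, 4 were listed, and their sum was 3464 and 2598 normalized counts in Ctrl and 5864 and 2901 in cKO. It was carried by *Clps* (3203 and 2486 in Ctrl, 5644 and 2547 in cKO), whose difference was 0.43 as deposited and -0.09 after length correction. Of the low genes, *Ctrb1* was higher in both cKO libraries (85.3 and 46.8 in Ctrl, 93.4 and 140 in cKO), and *Cpb1* and *Pnlip* overlapped. Of 5 squamous forestomach genes only *Krt14* was listed, with 101 and 18.0 in Ctrl and 230 and 41.3 in cKO. All 7 genes listed as higher in duodenum than ileum were present. Their sum was 11265 and 14791 in Ctrl and 15070 and 15854 in cKO, higher in both cKO libraries. Of the 7 genes, 3 were higher in both (*Pdx1*, *S100g* and *Fabp1*), against 9.73% of all crypt genes. The list was chosen with these data known, so nothing is read from this count. *Fabp1* was at 0.42 as deposited and -0.13 after length correction. *S100g* passed the threshold (1.00, SE 0.26), but its difference was 0.41 after length correction, which ended the call, as did leaving out either Ctrl library or cKO replicate 2. Without *S100g* the sums, taken after the data were seen, overlapped (10842 and 14303 in Ctrl, 14201 and 14897 in cKO), and the median difference over the 7 genes was 0.29 as deposited and 0.079 after length correction. The sum of 3 listed ileal genes overlapped in crypts, with 4731 and 7695 in Ctrl and 10396 and 3755 in cKO. In villi all 4 ileal genes were lower in both cKO libraries, as were 5611 of all 12701 villus genes. Their villus sum was 27265 in Ctrl and 8960 and 11967 in cKO (median -0.76, and -0.69 after length correction). Of the 7 duodenal genes, 2 were higher and 3 lower in both cKO villus libraries. The duodenal villus sum was 76854 in Ctrl and 55832 and 63748 in cKO. The part of the sampled segment in the values of the gland genes was not tested.

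In villi the members were near the detection limit. *Muc6*, *Cblif* and *Gast* were not listed there. *Tff2* read 9 reads in the Ctrl library and 42 and 33 in the cKO libraries, which is 0.617 CPM (95% exact Clopper-Pearson interval 0.282 to 1.17) against 2.67 (1.92 to 3.604) and 2.45 (1.69 to 3.44). The interval of the Ctrl library did not overlap those of the cKO libraries, and the log2 difference of normalized counts was 1.53.

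*Pgc* had 16 reads in the Ctrl villus library and 57 and 20 in the cKO libraries, or 1.10 CPM (0.627 to 1.78) against 3.62 (2.74 to 4.69) and 1.48 (0.906 to 2.29). *Gkn3* had 11 reads in Ctrl and 34 and 19 in cKO, or 0.754 CPM (0.376 to 1.35) against 2.16 (1.49 to 3.02) and 1.41 (0.849 to 2.20). On CPM, for both genes, the interval of cKO replicate 1 was clear of the Ctrl interval and that of cKO replicate 2 overlapped it. In normalized counts 1 read was worth 1.16 in Ctrl and 0.765 in cKO replicate 1, so the gap is narrower on that scale. Intervals were not computed on normalized counts, so the separation of cKO replicate 1 may depend on the scaling. All 3 genes were higher in both cKO libraries than in Ctrl, as were 43.7% of all 12701 villus genes, and the intervals cover counting error only.

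**Figure D5:**
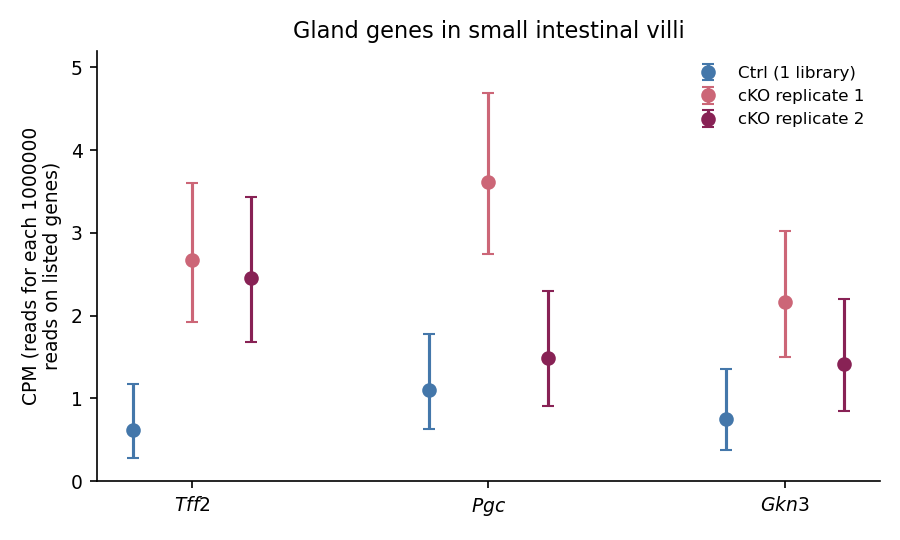
CPM (reads for each 1000000 reads on listed genes) of the 3 listed members in each villus library, with 95% exact Clopper-Pearson intervals for counting error. Blue is the single Ctrl library, red cKO replicate 1 and purple cKO replicate 2. For *Tff2* both cKO intervals (from 1.69 upward) lie above the Ctrl interval (up to 1.17), and for *Pgc* and *Gkn3* the interval of cKO replicate 2 overlaps that of Ctrl.

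The crypt level was far above the villus level in both genotypes. Mean CPM in crypts was 437 times that in villi for *Tff2* in Ctrl and 346 times in cKO. For *Pgc* the ratios were 209 and 191, and for *Gkn3* 126 and 106. The tables were normalized separately, and these ratios rest on 9 to 57 villus reads. Stem cell markers of the crypt base, summed over 5 genes, read 2504 normalized counts in the Ctrl villus library and 3896 and 2997 in the cKO villus libraries, so this sum too was higher in both. It was carried by *Olfm4* (1697 in Ctrl, 3056 and 2234 in cKO). *Lgr5* (13.9 in Ctrl, 64.2 and 30.9 in cKO) and *Axin2* (337 in Ctrl, 397 and 452 in cKO) were also higher in both. *Smoc2* was lower in both (415 in Ctrl, 333 and 251 in cKO), and *Ascl2* overlapped. The part of crypt cells in the villus values was not tested.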

How the data were processed

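Bulk RNA-seq of crypt and villus epithelium was analysed in 2 tables. Per the study's methods and the labels, reads were aligned to mm10 with STAR and gene counts were divided by DESeq2 size factors, and the authors deposited this size-factor-scaled signal as normalized counts. The labels name an NEBNext kit and the methods an Ovation kit, so the library chemistry is uncertain. Columns holding the authors' comparisons (fold changes, statistics and p-values) were not used. From the spacing of the values, 100% came out as whole reads within a tolerance of 0.01. The lowest mean of a listed gene was 48.4 in crypts and 8.73 in villi, so the tables hold only genes above a minimum, and a gene that is not listed has no value here.

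The members and the gene lists were chosen with earlier results of these data known. Crypts were compared with limma 3.58.1 (trend; R 4.3.3) on log2(normalized count + 1) over all genes with a mean of at least 1, checked first on simulated data, with 2 libraries a group and no covariate. P-values measure only the spread between these samples. Transcript length was corrected by subtracting a lowess curve (span 0.3) fitted on GENCODE M21 longest transcripts, known for 11546 of 11554 crypt and 12692 of 12701 villus genes. Named genes were the members, list genes past the threshold, the genomic neighbours, otherwise the 3 largest differences of a list, the 3 nearest profiles of each member (some are not reported here), and the deleted and driver genes. A4gnt, Rab3d, Chga, Cubn and Pdx1 were named for their roles after their values were seen. Marker lists for parietal, pancreatic, squamous, mesenchymal, immune, Paneth, goblet, stem, enterocyte, duodenal and ileal cells were summed. Alternatives were a replicate block, other scaling, pseudocount and filters, length correction, single libraries left out, and DESeq2 1.42.0 and edgeR 4.0.16 on the recovered reads. Promoters are RefSeq's (GRCm38.p6) and covered 5 of the 6 members. Intervals are exact Clopper-Pearson intervals at 95% (scipy 1.17.1) and cover counting error only. Figures were drawn with matplotlib 3.10.9.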

Additional observations from a re-analysis of the deposited data

Results flagged for a closer look

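For 2 genes of the gland and endocrine lists, the crypt and villus libraries lay on opposite sides of Ctrl by normalized counts. *Rab3d* had a log2 difference of -0.724 in villi (476 normalized counts in Ctrl, 262 and 316 in cKO) and 0.312 in crypts. Its villus difference was -0.849 after length correction. *Nkx6-3* had -0.393 in villi (42.9 in Ctrl, 25.2 and 41.5 in cKO) and 0.953 in crypts. These villus values rest on 37 reads in Ctrl and 33 and 43 in cKO, and the villus difference was -0.105 after length correction. The cKO replicate 2 library had more *Nkx6-3* reads than Ctrl from fewer reads on listed genes, so its villus side depends on the scaling. The villus side rests on 1 Ctrl library, and the difference between the tissues was not tested.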

How the results depend on the processing

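With 2 libraries a group, of which cKO replicate 1 is skewed by transcript length, the size of a difference depends much on the library. The 5 genes other than *Muc6* kept both cKO libraries above both Ctrl libraries with library-size scaling and with length correction, and leaving out a library cannot change that count. Higher calls numbered 20, but 63 with the replicate block and 60 with DESeq2, and 15 to 593 with single libraries left out. Lower calls numbered 1, but 15 with the block, 4 by library size alone, 4 with length correction, 6 with block and length correction, 5 with DESeq2, 3 with edgeR and 3 to 288 with single libraries left out. Adjusted p under 0.05 was reached by 0 genes, but by 34 with the block, 11 with DESeq2 and 0 to 1987 with single libraries left out. The upper ends (593, 288 and 1987) all come without cKO crypt replicate 2, when the skewed replicate 1 stands alone and is assumed to vary like the Ctrl libraries, and 4 genes reached an adjusted p under 0.05 without Ctrl crypt replicate 2. Higher calls made up 95.2% of calls, and 80.8% with the block, 81.8% by library size alone (where the median of all genes was -0.083), 84.6% with length correction, 74.2% without cKO crypt replicate 1 and 67.3% without cKO crypt replicate 2. Same-numbered libraries had deviations correlated at 0.25 over 2 pairs, so the numbers are not known to pair them. The villus difference of *Tff2* was 1.61 with a pseudocount of 0.1, 1.94 by library size and 2.38 with length correction, and that of *Gkn3* was 1.14 by library size and 1.47 with length correction. The log2 level of *Gast* over *Muc6* per kilobase was 1.97, and 2.07 with merged exons as the length. Of 442 alternatives computed, 391 kept direction and side of the threshold or stayed within the spread, 17 raised one of the counts of calls above, 7 gained a call for a single gene, 21 lost one, 6 moved a value and 0 turned direction among called values. The sign of *Muc6*, which is not called, changed with the library left out. Causes were not tested. In villi depth was the limit, at 9 to 57 reads a member.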

Other observations

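Sums of the remaining crypt markers give the setting of the gland genes. All 7 Paneth cell genes were listed, none passed the threshold, and their sum was 480017 and 409486 normalized counts in Ctrl and 798428 and 404030 in cKO, high in cKO replicate 1 only. Of 8 goblet cell genes, *Muc2* passed in the lower direction and none in the higher, and the median log2 difference was 0.29, or 0.049 after length correction. The 5 stem cell genes summed to 81814 and 78298 in Ctrl and 83362 and 69659 in cKO, and the 6 enterocyte genes to 55905 and 83551 in Ctrl and 72305 and 77279 in cKO, each with overlapping groups. The 7 immune genes summed to 2526 and 1965 in Ctrl and 2038 and 3330 in cKO and overlapped as well.

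The 6 gland genes together made up 13006 and 12332 normalized counts in Ctrl crypts and 41758 and 24971 in cKO crypts, of which *Tff2* and *Pgc* gave the greater part in each library.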
